A study of Mus musculus with 9 samples.

Results

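A group of 9 genes that mark microglia were followed through RNA sequencing of SB28 glioma in mouse brain. The members are Csf1r, C1qa, C1qb, C1qc, Cx3cr1, P2ry12, Tmem119, Aif1 and Trem2, taken by symbol from a deposited table of 24421 rows of read counts, in which all 9 were present in 1 row each. SB28 glioma cells are a mouse line marked with GFP, and BAL101553 (lisavanbulin) is a prodrug that disturbs microtubules. The 9 libraries, all from brain of C57BL/6 mice, fall into 3 groups of 3: control (control1 to control3) and BAL101553 (BAL1 to BAL3), described in the study as CD45-CD11b-GFP+ tumor cells sorted from the brain although the labels say whole tissue, and Astro1 to Astro3, labelled astrocytes with the treatment BAL101553. How the material of the Astro libraries was obtained is not given in the sources used here. Control tumors were taken earlier than treated ones to match their volume, so that treatment and time of growth cannot be told apart, and there are no astrocyte-labelled libraries without BAL101553. The paper points to a different deposit for its sequence data, and its text gives fewer ex vivo samples per group than the 3 in the table, so that its account of sorting and harvest may not cover each of these libraries. It calls its samples biological replicates, and no source used here says that each library came from a mouse of its own, so that p-values measure the spread between libraries, which may be technical.

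Microglia are the resident macrophages of the brain. They depend on the receptor encoded by Csf1r, which binds Csf1 and Il34, and they sense neurons through Cx3cr1, the receptor for Cx3cl1. Through P2ry12 they respond to nucleotides released by damaged cells. Trem2 is a receptor for lipids and debris that signals through the adaptor Tyrobp, and C1qa, C1qb and C1qc encode the chains of C1q, which starts the classical complement cascade. Tmem119 is a membrane protein used to tell microglia from other macrophages in brain, and it is also known from osteoblasts. Aif1 encodes the calcium-binding protein Iba1.

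Totals lay between 22919523 and 34013875 counted reads per library. Levels are given as CPM, read counts scaled to a common library size, here with TMM factors over the 9 libraries. The Astro libraries carried the astrocyte list (9 genes, led by Slc1a2 and Slc1a3) at a summed level of 13060 to 15985 CPM, against 682 to 977 CPM in the SB28 libraries. Slc1a2 and Slc1a3 themselves had means of 1.24 and 0.628 CPM in control and 1.41 and 1.87 CPM in BAL101553 libraries. The SB28 sum thus came almost wholly from other genes of the list. The Astro libraries also carried the oligodendrocyte list (6 genes, led by Mbp and Cnp) at 10498 to 13039 CPM, so that the labelled cell type was present but not alone. In the SB28 libraries, the genes of the 2 markers gated out, Ptprc (CD45) and Itgam (CD11b), had between 1 and 13 reads per library.

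The genes lie on 6 chromosomes of GRCm38 (mm10), by GENCODE vM21. C1qb, C1qc and C1qa lie side by side on the minus strand of chromosome 4 within 18.7 kb, and the other members lie apart. Aif1 (minus strand) and Trem2 (plus strand) are both on chromosome 17, at chr17:35170991-35176068 and chr17:48346401-48354147. Tmem119 is at chr5:113793729-113800516 on the minus strand. Cx3cr1 is at chr9:119901616-120069879 on the minus strand, a span that overlaps 9 other genes. Of its exon bases, 78 are shared with a gene of the plus strand. Csf1r is placed further on. P2ry12, at chr3:59216272-59262871 on the minus strand, lies inside Med12l, a gene of the plus strand, and its exons share no base with another gene.

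RefSeq start regions were at hand for 6 of the 9 members. Shown here are 3 upstream windows: those of C1qb and C1qc, neighbours in the genome, and that of P2ry12, whose level in SB28 cells is described further on. Capitals mark GAGGAA, the core of the sequence recognized by the myeloid factor PU.1 (Spi1), on either strand, and its extension GAGGAAGT, which contains GAGGAA, where it occurs. The letters were chosen with the members known. Each window is given 5′ to 3′ on the strand of its gene, from RefSeq on GRCm38.p6.
C1qb, chr4:136886201-136886450, minus strand: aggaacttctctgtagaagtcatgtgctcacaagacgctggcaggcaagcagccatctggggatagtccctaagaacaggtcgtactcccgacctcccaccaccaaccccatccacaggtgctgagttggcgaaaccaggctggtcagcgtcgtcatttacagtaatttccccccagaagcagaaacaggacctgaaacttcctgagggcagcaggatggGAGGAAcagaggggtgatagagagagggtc
C1qc, chr4:136893066-136893164, minus strand, upstream of the GENCODE start only: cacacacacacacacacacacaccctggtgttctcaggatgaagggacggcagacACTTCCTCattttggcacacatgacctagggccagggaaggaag
P2ry12, chr3:59262986-59263235, minus strand: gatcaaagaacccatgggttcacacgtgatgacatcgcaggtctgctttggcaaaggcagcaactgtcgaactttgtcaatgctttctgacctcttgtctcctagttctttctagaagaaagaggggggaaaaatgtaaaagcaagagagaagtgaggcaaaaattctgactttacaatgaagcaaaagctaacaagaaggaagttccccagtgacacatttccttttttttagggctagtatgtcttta
The shorter word was found in the 250 bases before the start in 4 of the 6 members (Aif1, C1qb, C1qc and Trem2), and in 23.3% of 32851 such windows of all genes. The longer word was found in C1qc alone among the 6, and in 2.44% of all windows. The window of P2ry12 held neither. A match of letters is a description and not a binding site.

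All 9 members were measured in the Astro libraries, and 8 of them were nearly absent from SB28 cells. Their summed level without Tmem119 was 470, 1003 and 739 CPM in Astro1, Astro2 and Astro3. In the control libraries it was 5.0, 3.16 and 3.71 CPM, and in the BAL101553 libraries 3.24, 2.86 and 2.12 CPM. Each of these 8 genes had between 90 and 9595 reads in an Astro library and between 1 and 60 in an SB28 library. In bulk RNA, fewer cells of a type and less RNA per cell cannot be told apart.

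**Figure D1:**
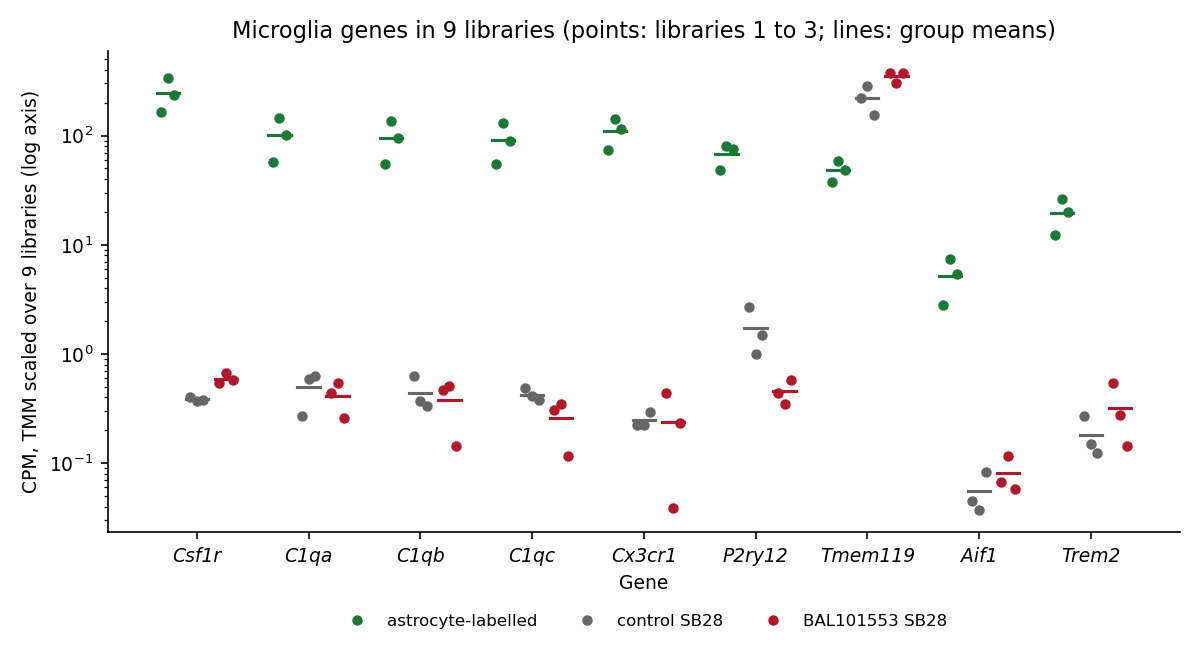
CPM of each member gene (x axis) in the 9 libraries, on a log y axis; points are libraries 1 to 3 of each group and lines are group means. For 8 genes the Astro libraries lie far above all SB28 libraries, and for Tmem119 they lie below them.

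Among the receptors, Csf1r was the member with the most reads in the Astro libraries. It lies on the plus strand of chromosome 18 from base 61100598 to 61132149, where 873 bases of its exons are shared with Hmgxb3 on the other strand. It stood at 164, 339 and 238 CPM in Astro1 to Astro3, at 0.402, 0.372 and 0.375 CPM in control1 to control3 and at 0.540, 0.665 and 0.581 CPM in BAL1 to BAL3. The Astro libraries lay far above the others, without overlap. By the quasi-likelihood test of edgeR, with p-values adjusted over all genes by Benjamini-Hochberg, its level was higher in Astro than in BAL101553 libraries by 8.66 on the log2 scale (SE 0.36, adjusted p = 2.12e-07, n = 3 per group), and higher than in control by 9.27 (SE 0.38, adjusted p = 6.44e-08). Reads of Hmgxb3 that fall on the shared exon bases cannot be told apart from Csf1r unless the counting used strand, which the sources do not state, and Hmgxb3 stood at 57.7 to 75.5 CPM in the SB28 libraries. The 9 to 20 reads of Csf1r there may thus not all be its own.

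Cx3cr1 stood at 74.3, 141 and 115.5 CPM in Astro1 to Astro3. Control libraries had 0.223, 0.223 and 0.292 CPM, and BAL1 to BAL3 had 0.439, 0.0391 and 0.232 CPM, where BAL2 held 1 read. Again no SB28 library came near the Astro libraries, and the log2 differences were 8.75 (SE 0.45) against BAL101553 and 8.74 (SE 0.36) against control, with adjusted p = 5.98e-07 and 6.31e-08 by the same test.

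Trem2 was low throughout, with 12.4, 26.2 and 20.2 CPM in Astro1 to Astro3. Its SB28 levels were 0.268, 0.149 and 0.125 CPM in the control libraries and 0.540, 0.274 and 0.145 CPM in the BAL101553 libraries. The groups of SB28 cells overlapped and rested on 13 and 28 reads in all. From summed reads, Trem2 was 61.6 times higher in Astro than in BAL101553 libraries (95% exact counting interval 42.5 to 93.1), and 108 times higher than in control (63.3 to 204). Such intervals cover counting error only.

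P2ry12 stood at 48.8, 80.0 and 75.9 CPM in Astro1 to Astro3. In control1 to control3 it had 2.68, 1.0 and 1.5 CPM, and in BAL1 to BAL3 0.439, 0.352 and 0.581 CPM. Here too the Astro libraries were highest, by 7.14 on the log2 scale against BAL101553 (SE 0.29, adjusted p = 1.85e-07, edgeR) and by 5.28 against control (SE 0.33, adjusted p = 7.01e-07). The control libraries were above all BAL101553 libraries, a difference taken up later.

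The 3 chains of C1q were close to each other in each Astro library. In Astro1, Astro2 and Astro3, C1qa had 57.5, 144 and 101 CPM. C1qb had 54.7, 135 and 94.1 CPM there, and C1qc had 55.3, 130 and 89.0 CPM. In SB28 libraries each chain had between 4 and 16 reads, or 0.116 to 0.625 CPM, so that none of them came near the Astro level. Against BAL101553 the log2 differences were 7.91 (SE 0.46), 7.99 (SE 0.50) and 8.47 (SE 0.48) for C1qa, C1qb and C1qc, and against control 7.59 (SE 0.46), 7.70 (SE 0.46) and 7.70 (SE 0.43). All 6 passed the test of edgeR, with adjusted p between 3.55e-07 and 1.77e-06.

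Aif1 had the fewest reads of the members, with 2.84, 7.42 and 5.40 CPM in Astro1 to Astro3. The SB28 libraries held 1 to 3 reads each. From summed reads, 440 against 7 and 440 against 4, the ratio was 65.5 against BAL101553 (95% exact counting interval 31.5 to 164) and 93.7 against control (36.4 to 346).

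Tmem119 went the other way. Its level was 37.4, 58.1 and 48.2 CPM in Astro1 to Astro3, 220, 284 and 154 CPM in control1 to control3 and 377, 305 and 372 CPM in BAL1 to BAL3. The lowest SB28 library was above the highest Astro library. Tmem119 was 7.52-fold lower in Astro than in BAL101553 libraries (log2 difference -2.91, SE 0.18, adjusted p = 1.82e-06, edgeR) and 4.72-fold lower than in control (log2 difference -2.24, SE 0.24, adjusted p = 2.63e-05).

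Counted together, 8 of 9 members were higher and 1 was lower in Astro libraries than in BAL101553 libraries, with a median log2 difference of 7.91. Of 15314 genes tested there, 85.1% passed the test, 46.3% higher and 38.9% lower, with a median of 0.18 over all genes. Against control the members again numbered 8 higher and 1 lower, with a median of 7.59. In that comparison 88.3% of 15207 genes passed, 48.8% higher and 39.5% lower, with a median of 0.25. With so many genes called, a call alone says little about a member. Both comparisons use the same Astro libraries. With other scalings, filters and models, and with each library left out, each member kept its direction and its call in both comparisons wherever it was tested.

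Compared per kilobase of the longest coding transcript, the members of the Astro libraries had C1qa first, at 96.8 ± 41.4 CPM per kb (SD, n = 3), followed by C1qb at 87.1 ± 37.1, C1qc at 76.0 ± 31.1 and Csf1r at 52.5 ± 18.7 CPM per kb. Over the 3 libraries the range of each of these overlapped with that of the next. Within each Astro library, however, C1qa was above C1qb, C1qb above C1qc and C1qc above Csf1r. Below them, and below the lowest Astro library of Csf1r, were P2ry12 at 29.1 ± 7.2, Cx3cr1 at 24.5 ± 7.5, Tmem119 at 21.4 ± 4.6 and Trem2 at 18.0 ± 6.4 CPM per kb, which again overlapped with their neighbours. With the union of all exons as length, a choice added after the data were seen, Trem2 stood at 3.95 CPM per kb, far below Tmem119 at 20.7, and C1qc at 47.4 CPM per kb, and the order of the members in the Astro libraries was unchanged. Aif1 was last, at 5.96 ± 2.63 CPM per kb. In SB28 cells Tmem119 was first by a wide margin, at 97.8 ± 29.0 CPM per kb in control and 157 ± 18 in BAL101553 libraries. The next member was P2ry12 in control, at 0.737 ± 0.367 CPM per kb, and C1qa in BAL101553 libraries, at 0.400 ± 0.139 CPM per kb. Per length, the level of Tmem119 in control SB28 cells lay beside that of C1qa in the Astro libraries, with overlapping ranges.

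Which members SB28 cells express themselves was read from the level in SB28 libraries as a percent of the Astro mean. For the 8 members other than Tmem119 the percent had a median of 0.481% in control and 0.405% in BAL101553 libraries. Csf1r was lowest in control, at 0.155%, and Cx3cr1 in BAL101553, at 0.215%. Aif1 and Trem2 were somewhat higher, at 1.06% and 0.924% in control and 1.55% and 1.63% in BAL101553 libraries, on the few reads given above.

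**Figure D2:**
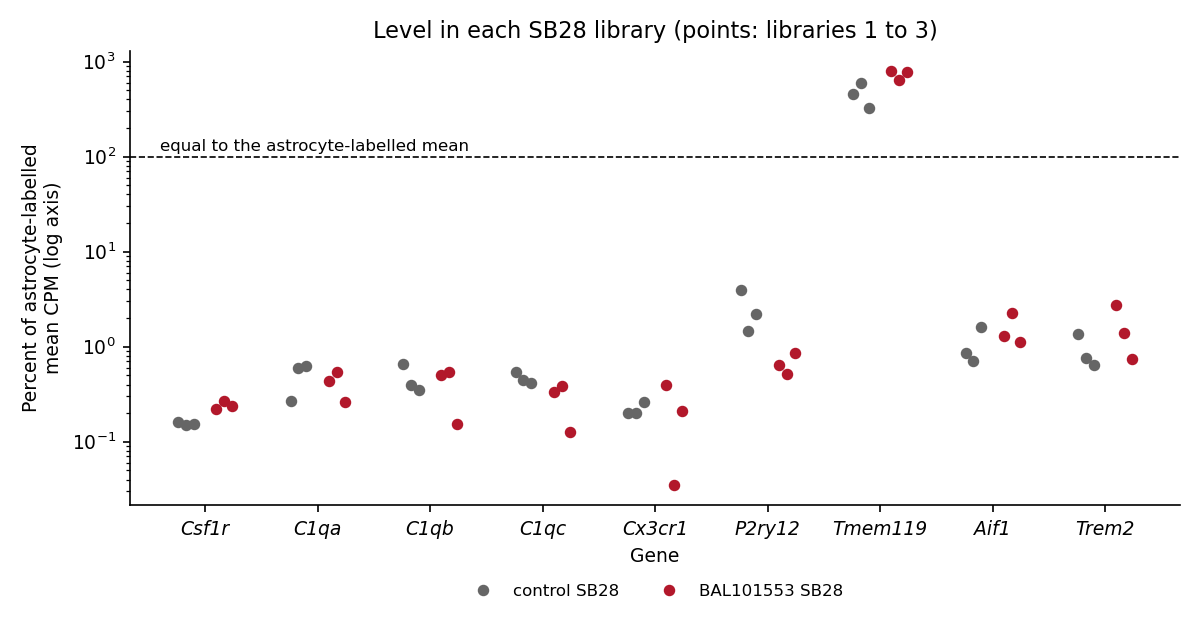
Level of each member in each SB28 library as a percent of its mean CPM in the Astro libraries, on a log y axis; points are libraries 1 to 3, the dashed line is 100%. Tmem119 lies above the line in all 6 libraries, and P2ry12 in control1 is the next highest point.

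Tmem119 reached 458% of the Astro mean in control and 733% in BAL101553 libraries. Over all 6 SB28 libraries its level was 596% of the Astro mean. Tmem119 thus had 3690 to 12817 reads in each SB28 library. Seen from the other side, its Astro level was 16.8% of the SB28 mean. Col1a1, a collagen gene of SB28 cells, stood in the Astro libraries at 0.842% of its SB28 mean, and Runx2, a bone transcription factor, at 2.55%. Axl, a receptor for dying cells that SB28 cells also carried, stood there at 26.8%. The part of RNA from SB28 cells in the Astro level of Tmem119 was not tested.

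P2ry12 was the other member to stand apart. Its percent was 3.93, 1.47 and 2.20 in control1 to control3, whereas the median of the 7 remaining low members in those libraries was 0.537, 0.448 and 0.410. At those medians P2ry12 would have had 8.2, 8.2 and 6.7 reads in control1 to control3, and 60, 27 and 36 were counted. In the BAL101553 libraries the medians correspond to 8.8, 9.4 and 5.5 reads, and 13, 9 and 20 were counted. P2ry12 was above the highest of the 7 genes in each control library and in none of the BAL101553 libraries.

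BAL101553 was next compared with control in SB28 cells. Only 5 of the 9 members had enough reads to be tested, and 1 of them, P2ry12, passed, with lower levels in BAL101553 libraries. Of 12633 genes tested, 14.7% passed, 8.64% higher and 6.09% lower. Of the calls, 58.7% were higher with TMM scaling and 77.4% with total library size. The median log2 difference was -0.25 over the 5 members and 0.02 over all genes. C1qc, Cx3cr1, Aif1 and Trem2 were below the filter on low counts.

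P2ry12 fell by 1.88 on the log2 scale (SE 0.44, adjusted p = 0.0313, edgeR), which is 3.68-fold, from 1.73 ± 0.86 to 0.457 ± 0.116 CPM (SD, n = 3). The groups did not overlap. The share of all genes with groups so separated was not counted, so that such a separation adds no support, here or for the genes below. The call did not hold without any 1 of BAL1, BAL2, BAL3, control1 or control3, where the adjusted p lay between 0.0597 and 0.0896 and the difference between -2.09 and -1.43. It held without control2 (adjusted p = 0.0307). Over all alternatives the adjusted p ranged from 0.00745 to 0.0896. Med12l, which spans P2ry12 on the other strand, moved the opposite way. It had 18, 16 and 9 reads in control and 49, 54 and 57 in BAL101553 libraries, a rise of 1.61 on the log2 scale (SE 0.35, adjusted p = 0.0247, edgeR). Med12l was named after its values were seen, and its call was not followed through the alternatives or with libraries left out.

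**Figure D3:**
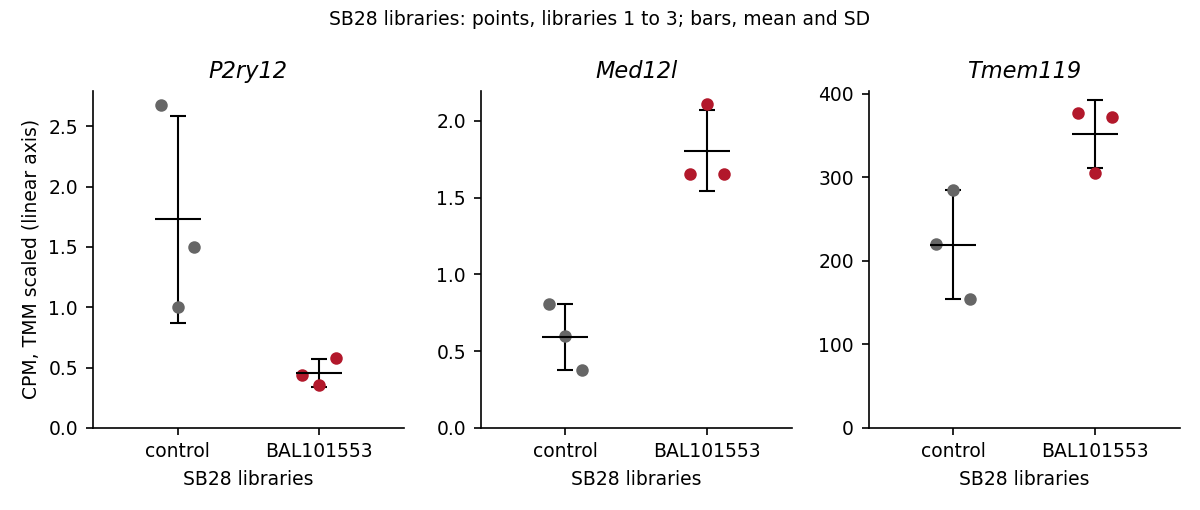
CPM of P2ry12, of Med12l (the gene that spans P2ry12 on the other strand) and of Tmem119 in control and BAL101553 SB28 libraries, on linear axes from 0; points are libraries 1 to 3, bars are mean and SD. In each panel the groups do not overlap; P2ry12 is lower and the other genes are higher in BAL101553 libraries.

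Tmem119 was at 219 ± 65 CPM in control and 351 ± 40 CPM in BAL101553 libraries (SD, n = 3), a log2 difference of 0.69 (SE 0.21) with an adjusted p of 0.0631 by edgeR, which did not pass. The groups did not overlap. It passed with DESeq2 (adjusted p = 0.0095), with total library size (0.0494), with a filter of at least 1 count in any library (0.0495) and without control2 (0.0331), and not with the other alternatives, whose range reached 0.148. Runx2 and Col1a1 were also higher in BAL101553 libraries, by 0.56 (SE 0.14, adjusted p = 0.037) and 0.49 (SE 0.11, adjusted p = 0.0295) on the log2 scale by edgeR. Of the 3 genes of the bone and mesenchyme list tested there, Ibsp went the other way, by -1.61 (SE 0.35, adjusted p = 0.0249, edgeR).

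Csf1r differed by 0.63 (SE 0.33, adjusted p = 0.215, edgeR) and did not pass. Its groups did not overlap, on 9, 10 and 9 reads in control and 16, 17 and 20 in BAL101553 libraries. C1qa and C1qb differed by -0.28 (SE 0.47, adjusted p = 0.706) and -0.25 (SE 0.54, adjusted p = 0.771), with overlapping groups. These 3 genes had 5 to 20 reads per library.

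Within the Astro group all 9 members had the same order of libraries, with Astro2 highest, Astro3 next and Astro1 lowest. Among 12061 genes with at least 100 reads in each Astro library, 10.6% had this order, the least frequent of the 6. The other orders took 13.1% to 24.1%. Aif1, with 90 reads in Astro1, was itself below that limit of 100 reads. The order of the members was the same with 2 other scalings. The members are not replicates of each other.

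The ratio of Astro2 to Astro1 was not equal over the members. It was smallest for Tmem119, at 1.55 (95% exact counting interval 1.44 to 1.67), and P2ry12, at 1.64 (1.54 to 1.75), followed by Cx3cr1 at 1.90 (1.80 to 2.0). Csf1r stood at 2.07 (2.0 to 2.14) and Trem2 at 2.12 (1.87 to 2.40). The C1q chains had larger ratios, 2.35 (2.22 to 2.49) for C1qc, 2.47 (2.34 to 2.62) for C1qb and 2.50 (2.36 to 2.64) for C1qa. Aif1 was highest, at 2.62 (2.03 to 3.39). The intervals of Tmem119, P2ry12 and Cx3cr1 did not meet those of the C1q chains, so that the members did not scale by 1 common factor within counting error. Astro2 and Astro3 were close in P2ry12, at a ratio of 1.05 (0.99 to 1.12), whereas for the C1q chains that ratio was 1.42 to 1.46.

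**Figure D4:**
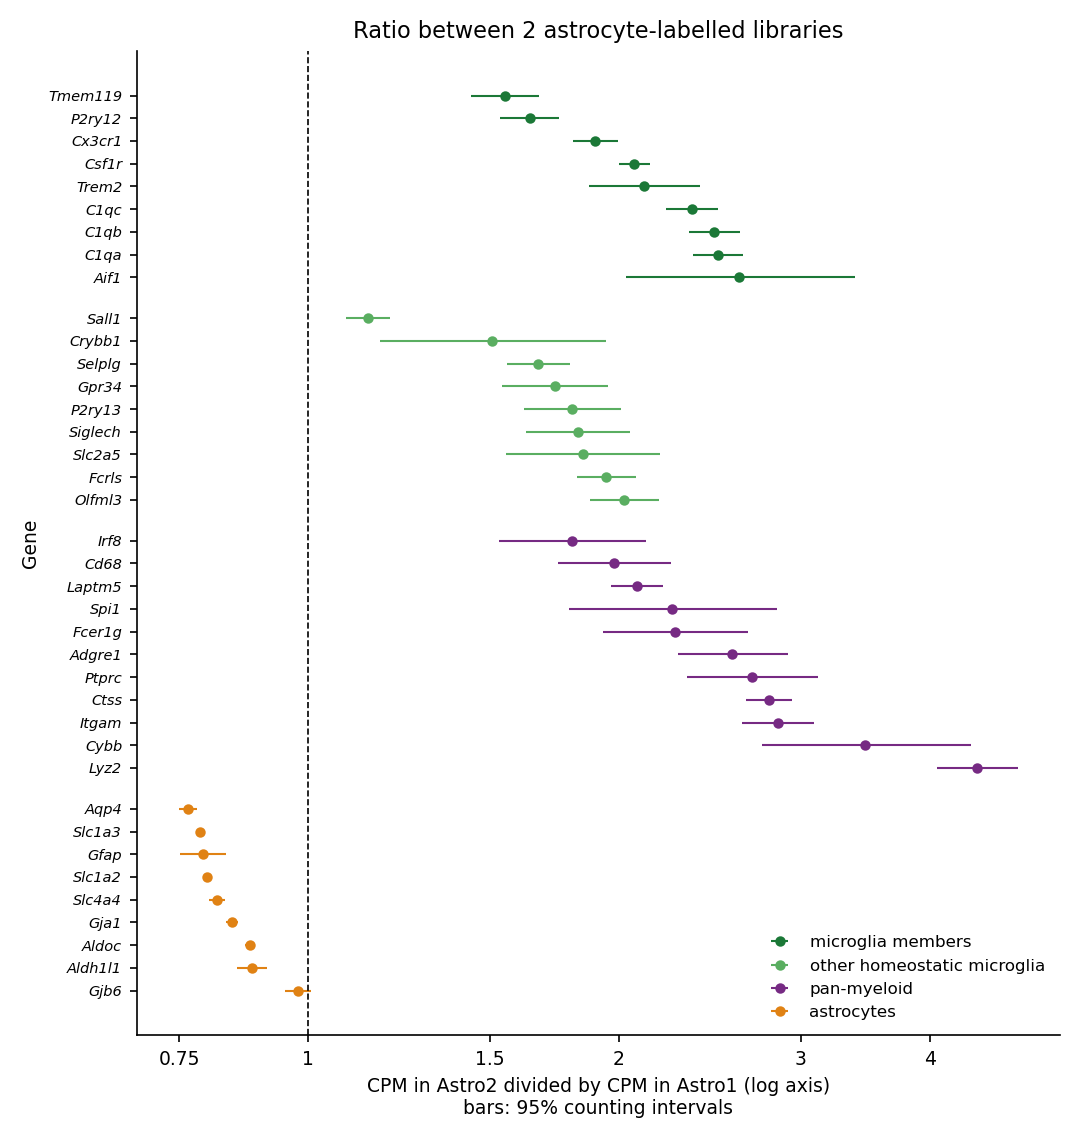
Ratio of CPM in Astro2 to CPM in Astro1 (log x axis) for the members, 9 other homeostatic microglia genes, 11 pan-myeloid genes and 9 astrocyte genes; bars are 95% exact counting intervals and the dashed line is 1. Members lie between 1.55 and 2.62, pan-myeloid genes reach 4.45, and astrocyte genes lie below 1.

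Other homeostatic microglia genes were in the same order in 9 of 10 cases, beside 10.6% of all genes with at least 100 reads in each Astro library. For those 9 the ratios of Astro2 to Astro1 lay between 1.51 and 2.02. The exception was Sall1, a transcription factor of microglia, with 1.14. Pan-myeloid genes, shared by microglia and blood-derived cells, were in that order in 11 of 11 cases, with ratios from 1.80 (Irf8) to 4.45 (Lyz2, the lysozyme of macrophages and neutrophils), and with 2.79 for Ctss, a cathepsin of myeloid cells. Border macrophage genes were in that order in 4 of 7 cases, Mrc1 with 2.0 and F13a1 with 2.32. Monocyte genes were in that order in 3 of 5 cases and neutrophil genes in 2 of 4. Of these lists, Ccr2 had a ratio of 7.47 (4.53 to 13) and S100a9, not in that order, of 4.37 (3.47 to 5.56). Both were at 0 reads in the 6 SB28 libraries, but some other genes of both lists had reads there. The summed monocyte list stood at 27.8% of its Astro mean in control and 30.3% in BAL101553 libraries, and the neutrophil list at 7.63% and 19.8%. Astrocyte genes had the order in 0 of 9 cases, with ratios from 0.764 to 0.977, and oligodendrocyte genes in 0 of 6. With the order in only 10.6% of all genes, counts of 0 in lists this short say little. The summed monocyte list was at 1.32, 6.86 and 2.24 CPM and the neutrophil list at 5.23, 21.6 and 4.82 CPM in Astro1 to Astro3. The part of these cells in the levels of the members was not tested.

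By distance of the log2 profile over the 3 Astro libraries from the median of the members, the 10 most similar of 9896 genes were Laptm5, Csf3r, Cyth4, Olfml3, Tyrobp, Ctsc, Nckap1l, Cd68, Mrc1 and Fcrls. With 3 libraries this is a description. Of the members themselves, Trem2 was nearest to the median (distance 0.0354 on the log2 scale), and P2ry12 and Tmem119 were farthest (0.308 and 0.350). The similar genes parted in SB28 cells. Csf3r, Fcrls and Tyrobp were at 0.146% to 0.365% of the Astro mean there, whereas Laptm5 was at 86.7%, Olfml3 at 109% and Ctsc at 328%. As with Tmem119, these microglia-associated genes were thus found at high level in SB28 libraries.

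The ligands and partners of the members were divided. Csf1, the ligand of Csf1r, had 119, 125 and 106 CPM in Astro1 to Astro3, 187, 195 and 178 CPM in control and 233, 297 and 236 CPM in BAL101553 libraries. SB28 cells thus carried the ligand at a higher level than the Astro libraries, with a log2 difference of -1.16 (SE 0.12, adjusted p = 2.72e-05) for Astro against BAL101553 by edgeR. The other ligand, Il34, and the ligand of Cx3cr1, Cx3cl1, differed by -1.45 (SE 0.16, adjusted p = 5.74e-05) and -2.55 (SE 0.26, adjusted p = 3.36e-05) in that comparison. Tyrobp, the adaptor of Trem2, followed the members, at 11.5 to 25.5 CPM in Astro and 0.029 to 0.101 CPM in SB28 libraries.

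Of the complement genes beside C1q, the proteases C1ra and C1s1 and the later components C3 and C4b were higher in Astro than in BAL101553 libraries, by 3.02, 4.86, 2.13 and 8.01 on the log2 scale, and Serping1, the inhibitor of the proteases, differed by -1.13. All 9 ligands and partners thus passed, 5 higher and 4 lower, with a median of 2.13. Of all genes, 46.3% were higher and 38.9% lower in that comparison. Against control, 4 of the 9 were higher, 3 were lower and 2 (C1s1 and Serping1) did not pass, beside 48.8% of all genes higher and 39.5% lower. In BAL101553 against control SB28 cells, 8 of the 9 were tested and 2 passed, both higher, beside the 14.7% of all genes. These were Csf1, by 0.46 (SE 0.12, adjusted p = 0.039, edgeR), and C3, by 4.61 (SE 0.57, adjusted p = 0.00728, edgeR). C3 had 0.491, 0.149 and 0.083 CPM in control1 to control3 and 8.54, 4.58 and 4.41 CPM in BAL1 to BAL3, whereas each C1q chain had 16 reads or fewer in each SB28 library.

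The other lists placed the members among brain cells. Of the 10 other homeostatic microglia genes, 9 were higher in Astro than in BAL101553 libraries and 1, Olfml3, did not pass (log2 difference -0.53, SE 0.28, adjusted p = 0.106, edgeR), with a median of 7.13. Sall1 of that list was at 103 ± 10 CPM in Astro and 4.57 ± 1.01 CPM in BAL101553 libraries (SD, n = 3). All 11 pan-myeloid genes were higher, beside 46.3% of all genes, with a median of 6.51, among them Ctss at 117 ± 59 and 0.419 ± 0.188 CPM. Laptm5, a lysosomal membrane protein of blood cells, was the second of that list, and did not pass in Astro against control (log2 difference -0.42, SE 0.26, adjusted p = 0.159, edgeR).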

How the data were processed

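RNA of 3 control, 3 BAL101553 and 3 astrocyte-labelled libraries was analyzed from 1 table of whole-number counts per gene, which the authors deposited without normalization. The authors' libraries were stranded; reads were mapped with TopHat, summarized with PicardTools and counted with HTSeq 0.6.1 and featureCounts, on mm10 per the labels. Which counter made the table, its annotation, its strand setting and its treatment of reads shared by genes are not given in the sources used here, so that overlapping genes may share or lose reads. The reads per library set the precision: at 3 reads or fewer a gene is at the limit of detection.

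The tests ran in R 4.3.3 (edgeR 4.0.16, DESeq2 1.42.0). Each fit held the 2 groups compared: filterByExpr, TMM, the quasi-likelihood test, two-sided, Benjamini-Hochberg adjustment over all genes tested, threshold 0.05. The code was tested on simulated data. Standard errors are the log2 difference divided by the square root of F. Alternatives were DESeq2, RLE and total library size, weaker and stricter filters on low values (1 count in any library, 10 in each), a model of all 9 libraries, the replicate number as a block, and each library left out. The exon union as gene length was added after the data were seen. Ratios of libraries have exact Clopper-Pearson intervals of 95%.

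The members and all gene lists were chosen with earlier results of these data known. Named are all members, their ligands and partners, the 2 genes of each other list with the highest mean CPM in Astro libraries, and the 10 most similar genes with at least 10 CPM in each Astro library; Ptprc, Itgam, Irf8, Lyz2, Spi1, Runx2, Spp1, Clec7a, Lpl, Itgax, Gpnmb, Sp7, Ibsp, Med12l and Hmgxb3 were named after their values were seen. A gene in each of 2 lists is not reported here, though list counts and sums use each list whole. Rows whose name had become a date (27 names) stayed in library sizes and tests.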

Additional observations from a re-analysis of the deposited data

How the results depend on the processing

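In both comparisons with the Astro libraries, all 110 values of members under the alternatives kept their direction and their call. With at least 10 counts required in every library, only 2 members were tested in each, and the count of members higher was 1 in each, by construction of the filter. The count of members called in BAL101553 against control was 1; it was 2 with DESeq2, with total library size and with a filter of at least 1 count in any library, 0 with at least 10 counts in every library, where P2ry12 was not tested, and 0 to 2 with 1 library left out. The number of all genes called there, 1860, became 2832 with DESeq2, 3022 with all 9 libraries in one model and 193 to 1712 with 1 library left out; the cause was not tested. C1qb, which was never called there, turned from -0.25 to 0.16 without BAL3 and to 0.06 without control1, within a range of -0.53 to 0.16 with 1 library left out. Total library size moved the median of all genes by 0.20 in Astro against BAL101553 and 0.30 in Astro against control on the log2 scale, far less than the differences of the members. Libraries with the same number had correlations of -0.013 to 0.071 in their deviations. In BAL101553 against control these were 0.055, -0.010 and 0.071, beside 0.042, 0.041 and -0.030 for the best other number. Weak correlations over all genes cannot decide whether libraries with the same number shared a harvest or batch. With the replicate number as a block, P2ry12 in BAL101553 against control kept its call (-1.83, adjusted p = 0.0402, edgeR). Tmem119 again did not pass there (0.73, adjusted p = 0.0832, edgeR). The number of members in the order Astro2, Astro3, Astro1 was 9 under each scaling, and the SB28 level of Tmem119 stayed between 517% and 666% of its Astro level. With the union of exons as length, all 9 members kept their rank in the Astro libraries, 6 in BAL101553 and 5 in control libraries. Replicates of a group differed by more than sampling noise (chi-square per degree of freedom 14.9 to 68.4). Depth limits the members other than Tmem119 in SB28 cells, at 1 to 60 reads.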

Other observations

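Tmem119 is also known from osteoblasts, and genes of bone and mesenchyme were not all alike in the libraries. Runx2 stood at 35.3 to 67.9 CPM in the SB28 libraries and at 1.10 to 1.38 CPM in the Astro libraries, Col1a1 at 3576 to 5756 CPM against 36.1 to 50.3 CPM, and Ibsp, a matrix protein of bone, at 3.48 to 22.9 CPM against at most 0.0771 CPM. These 3 genes were lower in Astro than in BAL101553 libraries by edgeR, with log2 differences of -5.57, -7.15 and -6.69. Alpl, the alkaline phosphatase of osteoblasts, which brain endothelium and other brain cells also express, was at 53.1 to 60.4 CPM in the Astro libraries and at 1 to 3 reads in SB28 libraries. Sp7, a transcription factor of osteoblasts, had 321 to 492 reads in the Astro libraries and 0 to 8 in SB28 libraries. Of the 5 genes tested against BAL101553, 2 were thus higher and 3 lower in Astro libraries, beside 46.3% and 38.9% of all genes.

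Among genes of activated microglia, Apoe was at 5092 to 6392 CPM in the Astro libraries, where Astro1 was highest, so that it did not follow the order of the members; astrocytes express it too. Of the 7 genes of that list tested in Astro against BAL101553 libraries, 4 were higher and 3 lower, beside 46.3% and 38.9% of all genes. Higher beside Apoe were Clec7a, Lpl and Itgax, by 5.16 (SE 0.91), 4.16 (SE 0.44) and 3.86 (SE 0.71) on the log2 scale, at means of 2.61, 2.69 and 0.892 CPM in the Astro libraries. Lower were Gpnmb, by -4.33 (SE 0.40), Axl, a receptor for dying cells, and Spp1 (osteopontin), with Spp1 at 10202 to 16140 CPM in the SB28 libraries against 14.4 to 54.0 CPM in the Astro libraries. In BAL101553 against control SB28 cells, Axl differed by -0.59 (SE 0.10, adjusted p = 0.014) and Spp1 by 0.53 (SE 0.11, adjusted p = 0.0235) by edgeR. Laptm5, which in the Astro libraries had the profile nearest to the members, fell by 1.57 on the log2 scale in that comparison (SE 0.42, adjusted p = 0.0442, edgeR), from 142, 95.9 and 94.5 CPM in control1 to control3 to 46.8, 14.1 and 50.4 CPM in BAL1 to BAL3.

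Among the remaining lists, the vessel genes Cldn5 and Flt1 were at 62.7 ± 2.2 and 51.7 ± 6.2 CPM and the pericyte genes Vtn and Pdgfrb at 646 ± 52 and 240 ± 10 CPM in the Astro libraries (SD, n = 3). In control and BAL101553 libraries Cldn5 had means of 0.968 and 0.802 CPM, and Vtn of 0.175 and 0.239 CPM. Flt1 had 33.6 and 41.2 CPM and Pdgfrb 241 and 356 CPM, so that neither was confined to the Astro libraries. The neuronal genes Snap25 and Stmn2 were low in the Astro libraries, at 5.0 ± 0.16 and 4.09 ± 0.58 CPM, and the lymphocyte gene Cd79a was at 0.375 ± 0.043 CPM. Stmn2 was higher in control and BAL101553 libraries, at means of 21.2 and 18.2 CPM, whereas Snap25 had 0.109 and 0.278 CPM. S100a8 and Chil3 of the neutrophil and monocyte lists were at 3.41 ± 3.09 and 0.746 ± 0.534 CPM in the Astro libraries. S100a8 had means of 0.793 CPM in control and 2.09 CPM in BAL101553 libraries, and Chil3 had 0 in both.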
